A study of Fukomys damarensis and Heterocephalus glaber and Cavia porcellus with 28 samples.

Results

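The natriuretic peptide system was followed in heart and liver of 4 rodent species through 7 genes chosen by name: the peptide genes Nppa, Nppb and Nppc, the receptor genes Npr1, Npr2 and Npr3, and Corin, which encodes a peptide-processing protease. Of these 7 genes, 6 had a row among the 13928 rows of each tissue table, and Nppb is not analysed here. The rows carry mouse gene identifiers: ENSMUSG00000041616 (Nppa), ENSMUSG00000026241 (Nppc), ENSMUSG00000027931 (Npr1), ENSMUSG00000028469 (Npr2), ENSMUSG00000022206 (Npr3) and ENSMUSG00000005220 (Corin). RNA was sequenced after removal of ribosomal RNA from 2 mole-rat species, the naked and the Damaraland, and from guinea pig and mouse as outgroups to them. The 14 heart libraries came from 3 naked and 5 Damaraland mole-rats, 3 guinea pigs and 3 mice. The 14 liver libraries came from 4 naked and 5 Damaraland mole-rats, 3 guinea pigs and 2 mice. The 28 libraries came from 18 animals, of which 10 gave both tissues. No treatment, strain or engineered allele is named in the labels. The naked mole-rats were 13 to 17 months old, the Damaraland mole-rats 36 to 48 months, the guinea pigs 2.3 months and the mice 2 months, so species and age cannot be told apart. All animals were male except the one that gave Damaraland liver replicate 4, which was female. One Damaraland animal carries an age of 48 months on its heart label and 36 months on its liver label.

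Natriuretic peptides are small hormones released mainly by heart muscle. The ANP precursor, encoded by Nppa, is made chiefly in the atria of the adult heart, and the BNP precursor is encoded by Nppb. The CNP precursor, encoded by Nppc, is known mostly from vessel lining, cartilage and brain. Corin is a membrane-bound serine protease, best known from heart muscle, that cuts the ANP precursor into its active form. NPR-A (Npr1) binds ANP and BNP and NPR-B (Npr2) binds CNP. Both are guanylyl cyclases, which make the second messenger cGMP and through it relax vessels and restrain muscle growth and fibrosis. NPR-C (Npr3) lacks a cyclase domain and takes the peptides up for degradation.

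Values below are as deposited, variance-stabilised and log2-like, on a scale where a gene without reads stands at 5.36 in heart and 4.29 in liver. This scale compresses rare genes: doubling 10 scaled reads in heart moved a value by 0.282, and doubling 1000 moved it by 0.946. Read totals recovered from the tables ran from 4089633 to 26985779 per heart library and from 11220505 to 21467939 per liver library. Naked mole-rat heart replicate 3 was the shallowest of the heart libraries, and Damaraland heart replicate 5, with 8551766 reads, was the next. Scaled reads are the recovered reads divided by each library's size factor. No correction for transcript length, which can differ between species, was added here, and whether the submitters made one is not stated. Levels are therefore compared within a gene and never between genes. The tables were transformed separately, so no test crosses tissues. Differences were tested with limma over 10667 heart genes and 10887 liver genes. A difference was called at a Benjamini-Hochberg adjusted p under 0.05 and a size of at least 1. The p-values measure the spread between the animals sampled.

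In heart, 5 of the 6 genes present were abundant enough to be tested, and Nppc was not. The called genes numbered 2 of 5 between naked and Damaraland mole-rats (29.4% of all tested genes were called there), 2 between naked mole-rat and guinea pig (33%), and 4 between naked mole-rat and mouse (38.2%). They numbered 3 between Damaraland mole-rat and guinea pig (29.7%), 3 between Damaraland mole-rat and mouse (34.9%) and 2 between guinea pig and mouse (32.1%). Summed over the pairs, 16 of 30 differences in heart were called, or 53.3%. When the mean of both mole-rats was set against the mean of both outgroups, only Nppa of the 5 was called (23.4% of all tested genes). No member was called with the same sign in all 4 comparisons of a mole-rat with an outgroup, a pattern held by 4.68% of heart genes.

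**Figure D1:**
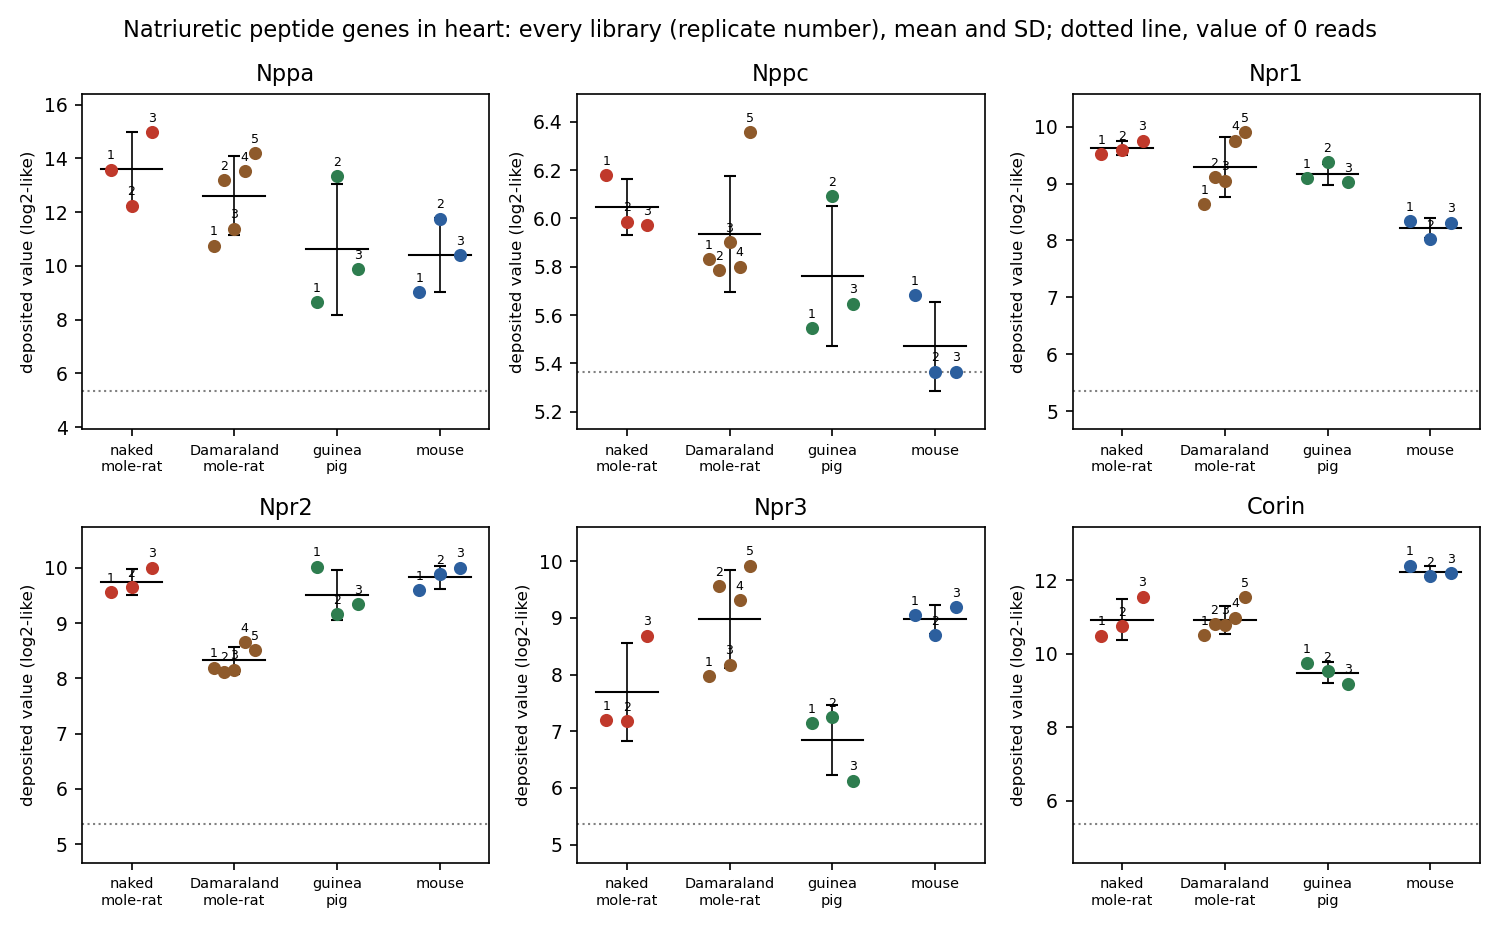
Deposited values (log2-like scale, y axis) of the 6 natriuretic peptide system genes in each heart library, by species (x axis), with replicate numbers beside the points, species means with SD, and a dotted line at the value of 0 reads. Nppa spread over several units within each species, Damaraland hearts lay lowest for Npr2, and Corin was lowest in guinea pig and highest in mouse.

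Nppa was the member with the highest values in mole-rat hearts relative to the outgroups, and also the one that varied most between animals. Its values were 13.58, 12.24 and 14.98 in naked mole-rat replicates 1 to 3 and 10.75, 13.18, 11.39, 13.53 and 14.20 in Damaraland replicates 1 to 5. Guinea pig hearts gave 8.65, 13.34 and 9.88, and mouse hearts 9.02, 11.76 and 10.41. Every naked mole-rat heart lay above every mouse heart, whereas guinea pig replicate 2 reached into the range of both mole-rats and the Damaraland hearts overlapped both outgroups.

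The mean of Nppa was 13.60 ± 1.37 (SD, n = 3) in naked and 12.61 ± 1.47 (n = 5) in Damaraland hearts, 10.62 ± 2.44 (n = 3) in guinea pig hearts and 10.40 ± 1.37 (n = 3) in mouse hearts. Naked mole-rat hearts exceeded mouse hearts by 3.20 (SE 1.07, limma adjusted p = 0.0152) and guinea pig hearts by 2.98 (SE 1.07, limma adjusted p = 0.0243). In scaled reads the naked mole-rat mean was 9.60 times the mouse mean, 4.97 times without naked mole-rat replicate 3 and 19.1 times without mouse replicate 2. Damaraland hearts differed from mouse by 2.21 (SE 0.96, limma adjusted p = 0.0517) and from guinea pig by 1.98 (SE 0.96, limma adjusted p = 0.0827), and neither difference was called. In 25 alternatives the mouse difference was called in 11 and the guinea pig difference in 3, and leaving out 1 library moved the latter from 0.995 to 3.345. The average of the mole-rats exceeded that of the outgroups by 2.59 (SE 0.72, limma adjusted p = 0.00447). Neither the mole-rats (0.99, limma adjusted p = 0.385) nor the outgroups (0.23, limma adjusted p = 0.868) were called different from each other.

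The pooled within-species SD of Nppa was 1.67, against a median of 0.25 over the 10667 heart genes tested, and only 2 genes had a larger one. The called differences rested on single libraries. Without naked mole-rat replicate 3, the adjusted p rose to 0.0724 against mouse and 0.104 against guinea pig (limma). The call against mouse was also lost without mouse replicate 1 (limma adjusted p = 0.0767), and the call against guinea pig without guinea pig replicate 1 (0.141) or replicate 3 (0.084), without the filter on low values (0.0616) or with a robust variance trend (0.0571). The average difference kept its call in all 25 alternatives, with limma adjusted p from 0.000282 to 0.0173.

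Whether a heart piece held atrial muscle is not stated in the labels, so the markers of atrial muscle were read beside Nppa. Of 11 listed, 9 had a row (Myl7 and Kcna5 had none). Myl4, the atrial essential myosin light chain, was at 9.46, 10.12 and 12.19 in naked mole-rat hearts and at 8.59, 6.06, 8.44, 6.82 and 11.08 in Damaraland hearts. It was at 7.54, 12.62 and 6.87 in guinea pig hearts and between 6.63 and 6.88 in mouse hearts. The library highest in Nppa in naked mole-rat (replicate 3), Damaraland mole-rat (replicate 5) and guinea pig (replicate 2) was in each case also the highest in Myl4. The other libraries of these species did not keep this order. Damaraland replicates 2 and 4, at 13.18 and 13.53 in Nppa, were the lowest in Myl4 (6.06 and 6.82). Replicates 1 and 3, at 10.75 and 11.39 in Nppa, had 8.59 and 8.44. In naked mole-rat and guinea pig, the remaining libraries stood in opposite order for Nppa and Myl4. In mouse, Nppa ranged over 9.02 to 11.76 while Myl4 hardly moved.

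Other atrial markers moved in the same libraries, though not all of them. Bmp10, an atrial growth factor, stood at 10.62 in naked mole-rat replicate 3 and 10.36 in Damaraland replicate 5, and at no more than 6.75 in any other heart, guinea pig replicate 2 (5.98) included. Sln, the sarcolipin gene, was at 9.95 in naked mole-rat replicate 3, against 6.80 and 6.55 in the other naked mole-rat hearts. Guinea pig replicate 2 gave 10.66 for Sln, against 7.37 and 8.49, and mouse hearts stayed between 5.36 and 6.03. Damaraland hearts had Sln between 9.05 and 11.15, with the maximum in replicate 2, so Sln and Myl4 did not single out the same Damaraland library. Mybphl, a myosin-binding protein gene, was likewise highest in naked mole-rat replicate 3 (8.83), Damaraland replicate 5 (7.59) and guinea pig replicate 2 (9.39).

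Set over the species, 2 of 8 tested atrial markers were called in the mole-rat average, near the 23.4% of all heart genes, and both were higher: Bmp10 by 1.72 (limma adjusted p = 0.0461) and Sln by 1.64 (limma adjusted p = 0.0154). The list's median difference was 0.41, against -0.00987 over all heart genes. Myl4 differed by 1.50 (limma adjusted p = 0.125), Nr2f2 by 0.64, Tbx5 by 0.18, Mybphl by -0.13, Pam by -0.32 and Kcnj3 by -0.99, none of them called. The summed level of the atrial list was 25427 to 29103 scaled reads in naked mole-rat, 6322 to 12626 in Damaraland, 14280 to 31204 in guinea pig and 11786 to 15569 in the mouse. The Damaraland range thus reached lowest, and it overlapped that of the mouse.

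The ventricular list had a high sum in every heart, made mostly of its abundant light chains, while Kcne1, a potassium channel subunit gene, was listed at 0 reads in naked mole-rat replicates 1 and 3. Myl2, the ventricular regulatory light chain, lay between 16.46 and 18.95 over the 14 libraries and was higher in the mole-rat average by 1.05 (limma adjusted p = 0.000416). It was the only one of 6 tested ventricular markers called. Myl3 differed by -0.26, Irx4 by 0.12, Mypn by 0.17, Lmod2 by 0.64 and Kcne1 by -0.91, and Hey2 had no row. The list summed to 272371 to 341388 scaled reads in naked mole-rat hearts, 269303 to 606192 in Damaraland, 193547 to 298677 in guinea pig and 192107 to 214357 in mouse hearts. In bulk tissue, fewer cells of a type and less RNA per cell cannot be told apart. The part of atrial muscle in the Nppa differences was not tested.

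**Figure D2:**
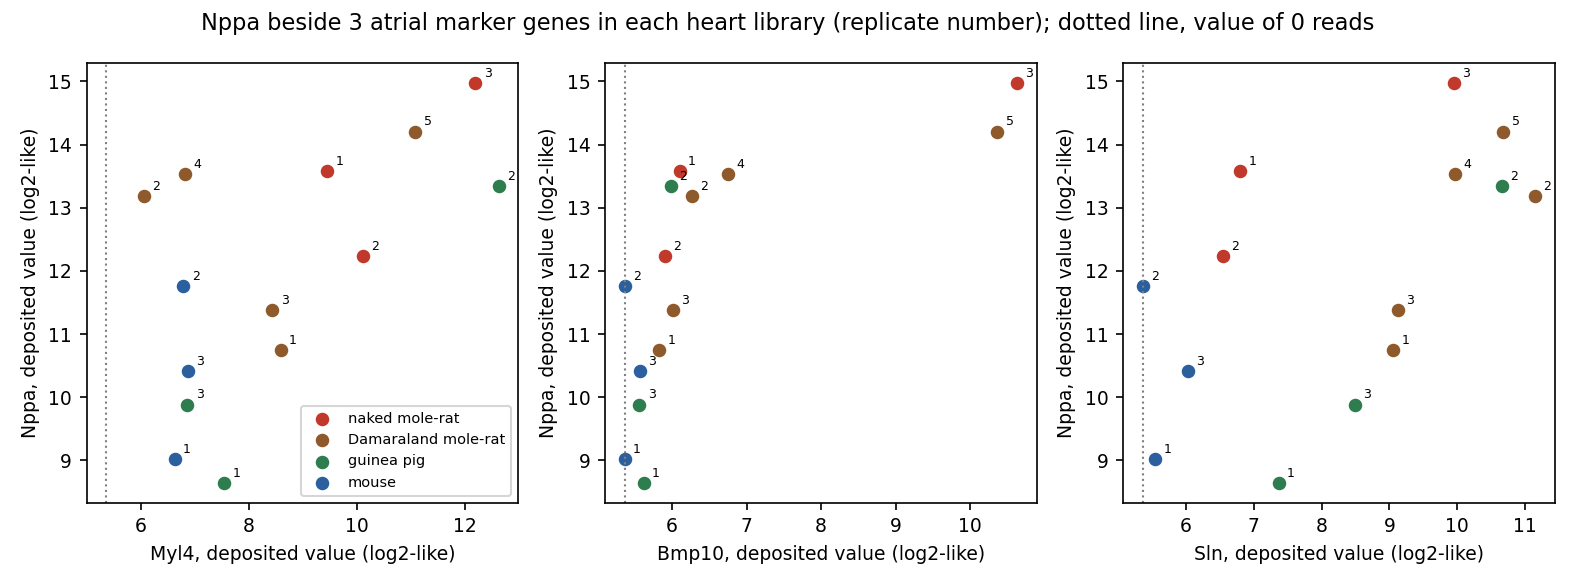
Deposited values (log2-like scale) of Nppa against those of the atrial markers Myl4, Sln and Bmp10, one point per heart library with its replicate number, one marker per panel, species by symbol and dotted lines at the value of 0 reads. The libraries with the highest Nppa in naked mole-rat (14.98), Damaraland mole-rat (14.20) and guinea pig (13.34) are also the highest of their species in Myl4. The other libraries of these species do not keep that order, and mouse hearts spread in Nppa at a nearly constant Myl4.

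Nppc was close to the limit of detection in both tissues. Heart libraries held 16, 12 and 2 reads of it in naked mole-rat, 5, 4, 9, 4 and 13 in Damaraland, 1, 14 and 2 in guinea pig and 3, 0 and 0 in the mouse. The 2 mouse hearts without a read allow up to 0.122 to 0.128 RPM (the gene's reads as a share of the library's recovered reads), by a limit of 3 reads over the library total that covers counting error only. In liver, 12 of 14 libraries held no read of Nppc, which allows up to 0.14 to 0.267 RPM. Naked mole-rat liver replicate 4 held 3 reads and mouse liver replicate 2 held 2. Nppc was below the filter and no difference in it was tested. All 8 mole-rat hearts, at 5.79 to 6.36, lay above the 3 mouse hearts, at 5.36 to 5.68, and guinea pig hearts overlapped both, all from at most 16 reads.

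Liver also held little Nppa. Naked mole-rat livers gave 1, 8, 12 and 7 reads, Damaraland livers 6, 7, 4, 4 and 4, guinea pig livers 0, 3 and 2, and mouse livers 1 and 1. Nppa therefore fell below the filter in liver and was not tested there.

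Among the receptors in heart, Npr1 was lowest in mouse. Its values were 9.51, 9.59 and 9.75 in naked mole-rat hearts, 8.64, 9.11, 9.05, 9.75 and 9.90 in Damaraland hearts, 9.10, 9.37 and 9.03 in guinea pig hearts, and 8.34, 8.02 and 8.31 in mouse hearts. All 11 hearts of the other species lay above all 3 mouse hearts, while naked and Damaraland hearts overlapped. Npr1 exceeded mouse by 1.39 (SE 0.26, limma adjusted p = 0.00017) in naked mole-rat and by 1.07 (SE 0.23, limma adjusted p = 0.000656) in Damaraland mole-rat, corresponding to 3.15 and 2.59 times the mouse scaled reads. The guinea pig difference from mouse of 0.94 (SE 0.26, limma adjusted p = 0.00491) was smaller than the size required. The Damaraland difference also lay near that size and dropped to between 0.91 and 0.96 without Damaraland replicate 4 or 5 or mouse replicate 2. It was 0.95 with array weights and 0.71 with the replicate number as a block, and was not called in either.

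Npr2, the CNP receptor, was the member that set Damaraland hearts apart. It stood at 8.20, 8.12, 8.15, 8.65 and 8.51 in Damaraland hearts, against 9.56, 9.65 and 10.00 in naked mole-rat, 10.02, 9.16 and 9.34 in guinea pig and 9.59, 9.88 and 10.00 in mouse hearts. No Damaraland heart reached the lowest heart of another species, and the other species overlapped among themselves. Damaraland hearts were lower than naked mole-rat hearts by 1.41 (SE 0.20, limma adjusted p = 1.24e-05). Their difference from guinea pig was -1.18 (SE 0.20, limma adjusted p = 7.41e-05) and that from mouse was -1.50 (SE 0.20, limma adjusted p = 5.06e-06). Being called against each other species with one sign was a pattern of 6.76% of heart genes for the Damaraland mole-rat. Without guinea pig replicate 1, the highest guinea pig heart, the difference from guinea pig was -0.93 and no longer reached the required size.

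Npr3, the clearance receptor, divided the species differently. Its heart values were 7.20, 7.18 and 8.69 in naked mole-rat, 7.97, 9.56, 8.17, 9.31 and 9.92 in Damaraland, 7.14, 7.25 and 6.13 in guinea pig and 9.05, 8.69 and 9.19 in mouse. Damaraland and mouse hearts were high and overlapped, guinea pig hearts lay below all of them, and naked mole-rat replicate 3 stood well above its 2 companions. Damaraland hearts exceeded guinea pig hearts by 2.15 (SE 0.43, limma adjusted p = 0.000396), a ratio of 9.20 in scaled reads, and guinea pig differed from mouse by -2.14 (SE 0.48, limma adjusted p = 0.00114). Damaraland and mouse means were 0.01 apart (SE 0.43, limma adjusted p = 0.987).

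The naked mole-rat difference in Npr3 was less secure. It was -1.30 from Damaraland (SE 0.43, limma adjusted p = 0.0152) and -1.29 from mouse (SE 0.48, limma adjusted p = 0.0271). Leaving out naked mole-rat replicate 1 or 2 ended both calls, with limma adjusted p of 0.0777 and 0.0815 against Damaraland and 0.102 and 0.107 against mouse. Leaving out mouse replicate 1 or 3 also ended the call against mouse (0.0639 and 0.0778), as did a fit without the filter on low values (limma adjusted p = 0.0611). With the replicate number as a block, the difference from Damaraland was -0.88 (limma adjusted p = 0.128). The pooled within-species SD of Npr3 in heart was 0.73, and 54 of 10667 genes had a larger one.

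Fibroblast and smooth muscle cells of the heart can carry natriuretic receptors, so their marker sums are given beside these values. The fibroblast list summed to 2243 to 4382 scaled reads in naked mole-rat hearts, 5903 to 14206 in Damaraland, 9158 to 15217 in guinea pig and 3932 to 4334 in mouse hearts, with 5 of 6 markers in the table and none of these at 0. The smooth muscle list summed to 7768 to 11027 in naked mole-rat, 13035 to 17424 in Damaraland, 12816 to 14040 in guinea pig and 13735 to 21033 in mouse hearts. The endothelial list summed to 15535 to 19436 in naked mole-rat hearts, 10765 to 16666 in Damaraland hearts, 15032 to 19331 in guinea pig hearts and 11713 to 15188 in mouse hearts. The Damaraland hearts, lowest in Npr2 and far above guinea pig in Npr3, overlapped guinea pig hearts in all 3 sums, but single markers differed between them: 1 of 7 endothelial markers was called higher in Damaraland and 3 lower, 3 of 6 smooth muscle markers higher and 1 lower, and 1 of 5 fibroblast markers lower, against 29.7% of all heart genes called in this comparison. The part of cell makeup in the receptor differences was not tested.

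Corin in heart ran from guinea pig at the bottom to mouse at the top. Guinea pig hearts gave 9.75, 9.51 and 9.18, naked mole-rat hearts 10.48, 10.75 and 11.55, Damaraland hearts 10.50, 10.81, 10.79, 10.98 and 11.54, and mouse hearts 12.39, 12.11 and 12.19. The naked and Damaraland ranges nearly coincided, and neither touched that of guinea pig or mouse. Guinea pig differed from mouse by -2.75 (SE 0.27, limma adjusted p = 2.33e-07), with 7.35 times as many scaled reads in mouse. Naked mole-rat hearts exceeded guinea pig by 1.45 (SE 0.27, limma adjusted p = 0.000219) and fell below mouse by 1.30 (SE 0.27, limma adjusted p = 0.000496). Damaraland hearts differed by 1.44 and -1.31 from the same species (SE 0.24 each, limma adjusted p = 7.25e-05 and 0.000163). The mole-rats differed from each other by 0.00 (SE 0.24, limma adjusted p = 0.988). Corin was thus called in guinea pig alone, a pattern of 6.61% of heart genes, and in mouse alone, a pattern of 10.4%, and all 5 of these calls held in every alternative.

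In liver, 4 of the 6 genes present could be tested: Npr1, Npr2, Npr3 and Corin. All 4 were called between naked and Damaraland mole-rats (34.2% of all tested genes), 2 between naked mole-rat and guinea pig (37.8%) and 2 between naked mole-rat and mouse (41.2%). Between Damaraland mole-rat and guinea pig 1 was called (36.2%), between Damaraland mole-rat and mouse 1 (39.2%), and between guinea pig and mouse 2 (37.2%). These made 12 of 24 differences, or 50.0%. Between the average of the mole-rats and that of the outgroups, Corin was called (28.1% of all tested genes) and the receptors were not. By limma with voom weights on recovered reads, Npr3 was called in this average as well (1.15 log2 units, adjusted p = 0.0038). Again no member was called with one sign in all 4 comparisons of a mole-rat with an outgroup, a pattern of 6.29% of liver genes. None was called in Damaraland mole-rat alone (8.81% of liver genes), guinea pig alone (9.38%) or mouse alone (12.2%).

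**Figure D3:**
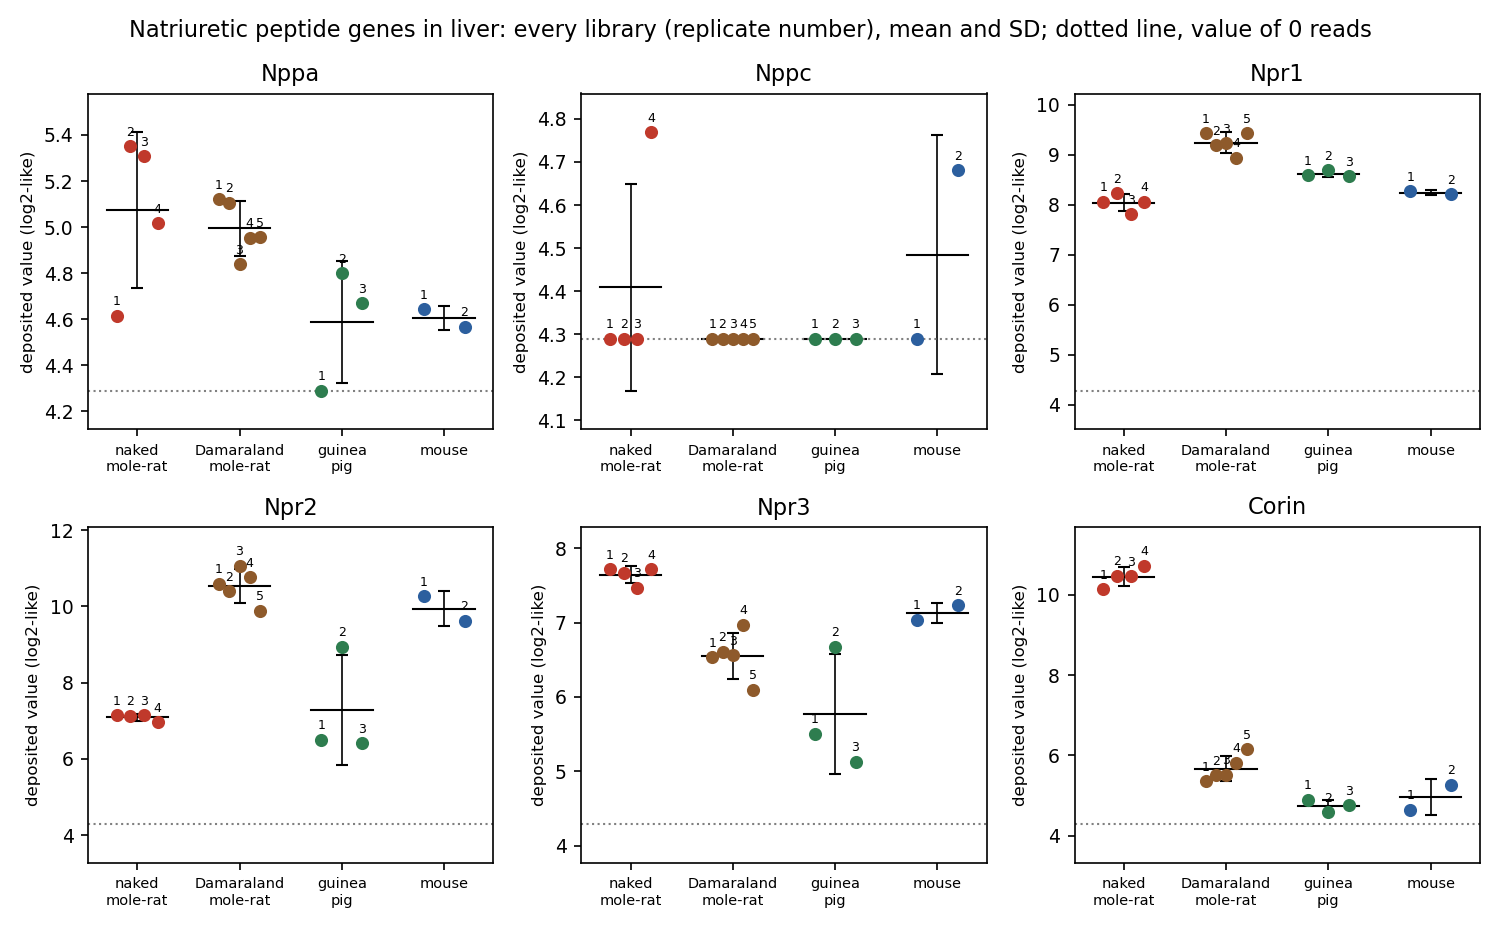
Deposited values (log2-like scale, y axis) of the 6 natriuretic peptide system genes in each liver library, by species (x axis), with replicate numbers, species means with SD, and a dotted line at the value of 0 reads. Corin is high in the 4 naked mole-rat livers only, Npr2 separates Damaraland mole-rat and mouse livers from naked mole-rat and guinea pig livers, and Nppa and Nppc lie near the dotted line.

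The largest difference of any member was that of Corin in naked mole-rat liver. Its values were 10.13, 10.47, 10.47 and 10.72 in naked mole-rat livers, from 1092, 1000, 1630 and 2274 reads. Damaraland livers gave 5.35, 5.50, 5.52, 5.82 and 6.15 in ascending order, from 10 to 35 reads per library. Guinea pig livers stood at 4.89, 4.59 and 4.75, from 5, 1 and 3 reads, and mouse livers at 4.64 and 5.27, from 1 and 13 reads. The naked mole-rat livers formed a tight group far above the other 10 livers, and none of the others held more than 35 reads.

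Corin in naked mole-rat liver exceeded that in Damaraland liver by 4.78 (SE 0.19, limma adjusted p = 6.95e-13), that in guinea pig liver by 5.71 (SE 0.21, limma adjusted p = 4.48e-13) and that in mouse liver by 5.49 (SE 0.24, limma adjusted p = 4.84e-12). In scaled reads the naked mole-rat mean of 1375 was 67.2 times the Damaraland mean of 20.5. Among differences of the same sign over the 10887 liver genes, Corin ranked 49th, 32nd and 52nd in these 3 comparisons, in the order given. Corin was called in naked mole-rat alone, as 10.3% of liver genes were, and these calls held in every alternative. It passed the filter, at 5.29 in liver, only through the naked mole-rat livers, which raised its mean over all livers to 6.74. Guinea pig and mouse means of 4.74 and 4.96 lay below the filter, and the Damaraland mean of 5.67 lay little above it. Being tested and called in naked mole-rat are therefore not independent. The average of the mole-rats exceeded that of the outgroups by 3.21 (limma adjusted p = 1.82e-11), a difference made mostly by the naked mole-rat, since the Damaraland differences from guinea pig (0.92, limma adjusted p = 0.000751) and mouse (0.71, limma adjusted p = 0.0137) were under the required size. On recovered reads, where low counts are not compressed, limma with voom weights gave 3.05 and 2.03 log2 units for these Damaraland differences and called both.

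Counted as RPM, Corin in the 4 naked mole-rat livers lay between 70.8 and 109.9, and in the 3 naked mole-rat hearts between 83.5 and 191.9, the highest being replicate 3, which has no matching liver. The animal that gave heart replicate 1 had 83.5 RPM in heart and 85.2 in liver, and the animal that gave heart replicate 2 had 112 and 70.8. In the 4 Damaraland animals with both tissues, heart held 106.5 to 216.6 RPM and liver 0.84 to 2.99. The 3 guinea pigs had 38.1 to 58.3 in heart and 0.0717 to 0.254 in liver, and the 1 mouse with both had 236.8 and 0.708. Such values depend on the makeup of each tissue's RNA, so these pairs are given as a description, with no test across tissues.

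Heart muscle markers were read beside Corin in liver. The ventricular list summed to 234.5 to 426.1 scaled reads in naked mole-rat livers, 473.5 to 994.6 in Damaraland, 79.3 to 572.1 in guinea pig and 95.0 to 171.1 in mouse livers, against at least 192107 in any heart. The atrial list summed to 1535 to 1928 in naked mole-rat livers, 1077 to 1334 in Damaraland livers, 1680 to 1959 in guinea pig livers and 1325 to 1391 in mouse livers. Naked mole-rat livers thus lay below Damaraland livers in the ventricular sum and above them in the atrial sum, and overlapped guinea pig livers in both. The part of heart muscle RNA in the liver values was not tested. The hepatocyte list, with 5 of 7 markers in the table, summed to between 1525093 and 2882903 in naked mole-rat livers. In hearts this list reached 10810 to 30928 scaled reads in naked mole-rat, 1774 to 5159 in Damaraland, 429 to 1965 in guinea pig and 330 to 1141 in the mouse. All 5 hepatocyte markers were called higher in the mole-rat heart average, Alb by 3.43, against 23.4% of all heart genes called. All 5 were also called higher in naked mole-rat hearts than in Damaraland (29.4%), guinea pig (33%) and mouse hearts (38.2% of all heart genes). In Damaraland hearts, 1 of 5 was called higher than in guinea pig (29.7%) and 3 of 5 higher than in mouse (34.9%). The part of hepatocyte RNA in the heart values was not tested.

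**Figure D4:**
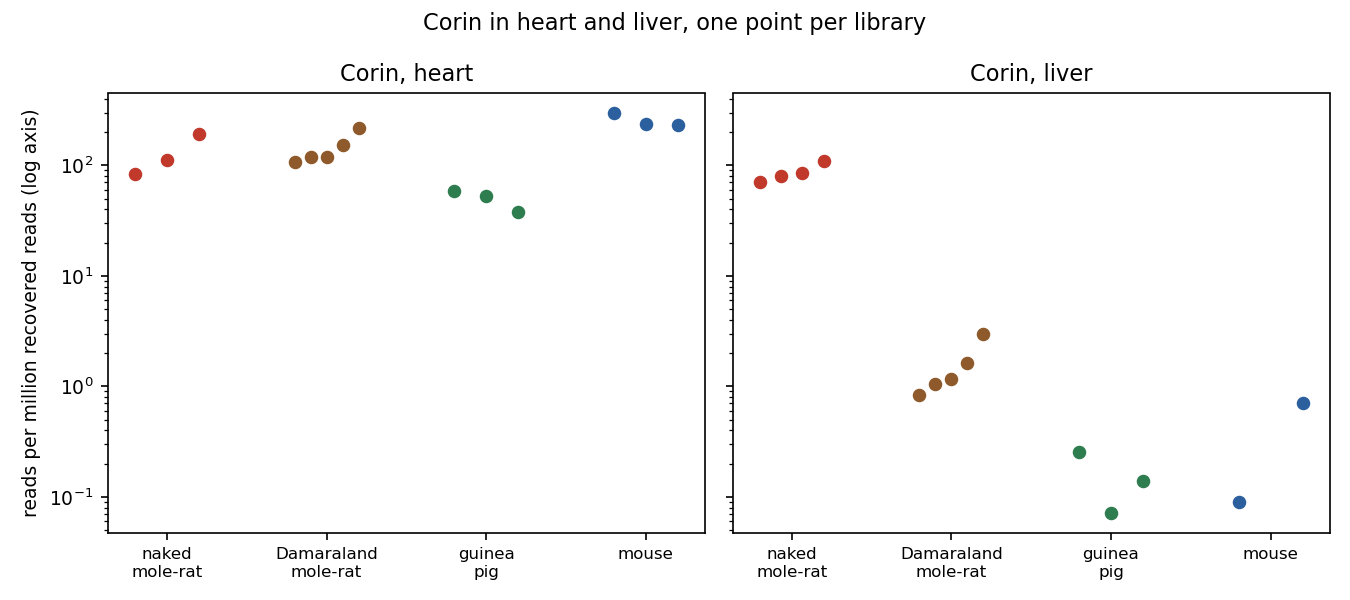
Corin in RPM of all recovered reads (log y axis), in heart (left) and liver (right), one point per library, by species. Heart values lie between 38.1 and 236.8 in the animals that gave both tissues, and liver values between 70.8 and 109.9 in the 4 naked mole-rats and at or below 2.99 in the other species.

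Npr2 in liver was high in Damaraland mole-rat and mouse and low in the naked mole-rat. Damaraland livers gave 10.59, 10.40, 11.07, 10.77 and 9.89 and mouse livers 10.26 and 9.62, which overlapped. Naked mole-rat livers gave 7.15, 7.13, 7.14 and 6.95, and guinea pig livers 6.51, 8.95 and 6.41. Guinea pig replicate 2 stood well above the other guinea pig livers and still below every Damaraland and mouse liver. That animal, which gave heart replicate 1, also had the highest Npr2 of the guinea pig hearts, with 71.8 RPM in heart and 39.5 in liver against 39.9 and 43.1 in heart and 4.06 and 3.45 in liver for the others.

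Damaraland livers exceeded naked mole-rat livers in Npr2 by 3.45 (the naked mole-rat difference was -3.45, SE 0.39, limma adjusted p = 4.83e-07), which was 15.0 times the scaled reads. They exceeded guinea pig livers by 3.26 (SE 0.42, limma adjusted p = 2.91e-06). Naked mole-rat livers differed from mouse by -2.85 (SE 0.50, limma adjusted p = 8.56e-05) and guinea pig livers from mouse by -2.66 (SE 0.52, limma adjusted p = 0.00034). Damaraland and mouse (0.60, limma adjusted p = 0.286) and naked mole-rat and guinea pig (-0.19, limma adjusted p = 0.716) were not called apart. The last difference turned to 0.64 (limma adjusted p = 0.0413) without guinea pig replicate 2. All 4 calls held in every alternative. The Damaraland mole-rat was therefore the lowest species for Npr2 in heart and had the highest mean in liver.

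Npr1 and Npr3 in liver changed less. Npr1 was at 8.07, 8.24, 7.82 and 8.06 in naked mole-rat, 9.43, 9.19, 9.23, 8.94 and 9.44 in Damaraland, 8.59, 8.70 and 8.58 in guinea pig and 8.28 and 8.21 in mouse livers. Damaraland livers were the highest throughout, and naked mole-rat and mouse livers overlapped at the bottom. The Damaraland difference was called against naked mole-rat (naked minus Damaraland -1.20, SE 0.13, limma adjusted p = 5.18e-07) and, at the limit of the required size, against mouse (1.001, SE 0.17, limma adjusted p = 5.93e-05). The latter fell to between 0.95 and 0.97 without Damaraland replicate 1 or 5 or mouse replicate 2, and to 0.95 with array weights. Against guinea pig the difference of 0.62 (limma adjusted p = 0.00126) was under that size.

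Npr3 was highest in naked mole-rat livers, at 7.72, 7.68, 7.47 and 7.72. It stood at 6.54, 6.61, 6.56, 6.97 and 6.10 in Damaraland livers, 5.50, 6.68 and 5.13 in guinea pig livers and 7.04 and 7.23 in mouse livers. Each naked mole-rat liver lay above every other liver, and only Damaraland and guinea pig livers overlapped. Naked mole-rat livers exceeded Damaraland by 1.09 (SE 0.24, limma adjusted p = 0.000813) and guinea pig by 1.88 (SE 0.28, limma adjusted p = 1.43e-05). Guinea pig livers differed from mouse by -1.37 (SE 0.33, limma adjusted p = 0.002). The difference between naked mole-rat and mouse was 0.51 (limma adjusted p = 0.166). That from Damaraland was 0.98, under the required size, without Damaraland replicate 5 and also with the replicate number as a block.

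Markers of the liver's other cells are given beside the receptors. The stellate list summed to 6211 to 9491 scaled reads in naked mole-rat, 4057 to 5657 in Damaraland, 5012 to 6500 in guinea pig and 3432 to 3491 in mouse livers. The sinusoidal endothelial list summed to 5375 to 7456 in naked mole-rat livers, 8651 to 10397 in Damaraland livers, 11500 to 13022 in guinea pig livers and 4022 to 5154 in mouse livers. The fibroblast list gave 744.6 to 1076 in naked mole-rat livers, 416.5 to 624.0 in Damaraland livers, 2315 to 4367 in guinea pig livers and 1042 to 1535 in mouse livers. Guinea pig livers held the most fibroblast and sinusoidal markers. Damaraland livers, highest in Npr1 and Npr2, held the smallest fibroblast sum. Of 5 tested fibroblast markers, 3 were called in the mole-rat average, against 28.1% of all liver genes. They were Dcn, Dpt and Lum, all lower (differences of -3.50, -2.21 and -2.08). Without the size threshold, 4 of the 5 were lower and 1 was higher. In Damaraland livers, 4 were called lower than in guinea pig livers (36.2% of all genes). Against mouse livers, 2 were lower and 1 higher (39.2%). The part of these cells in the receptor values was not tested.

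**Figure D5:**
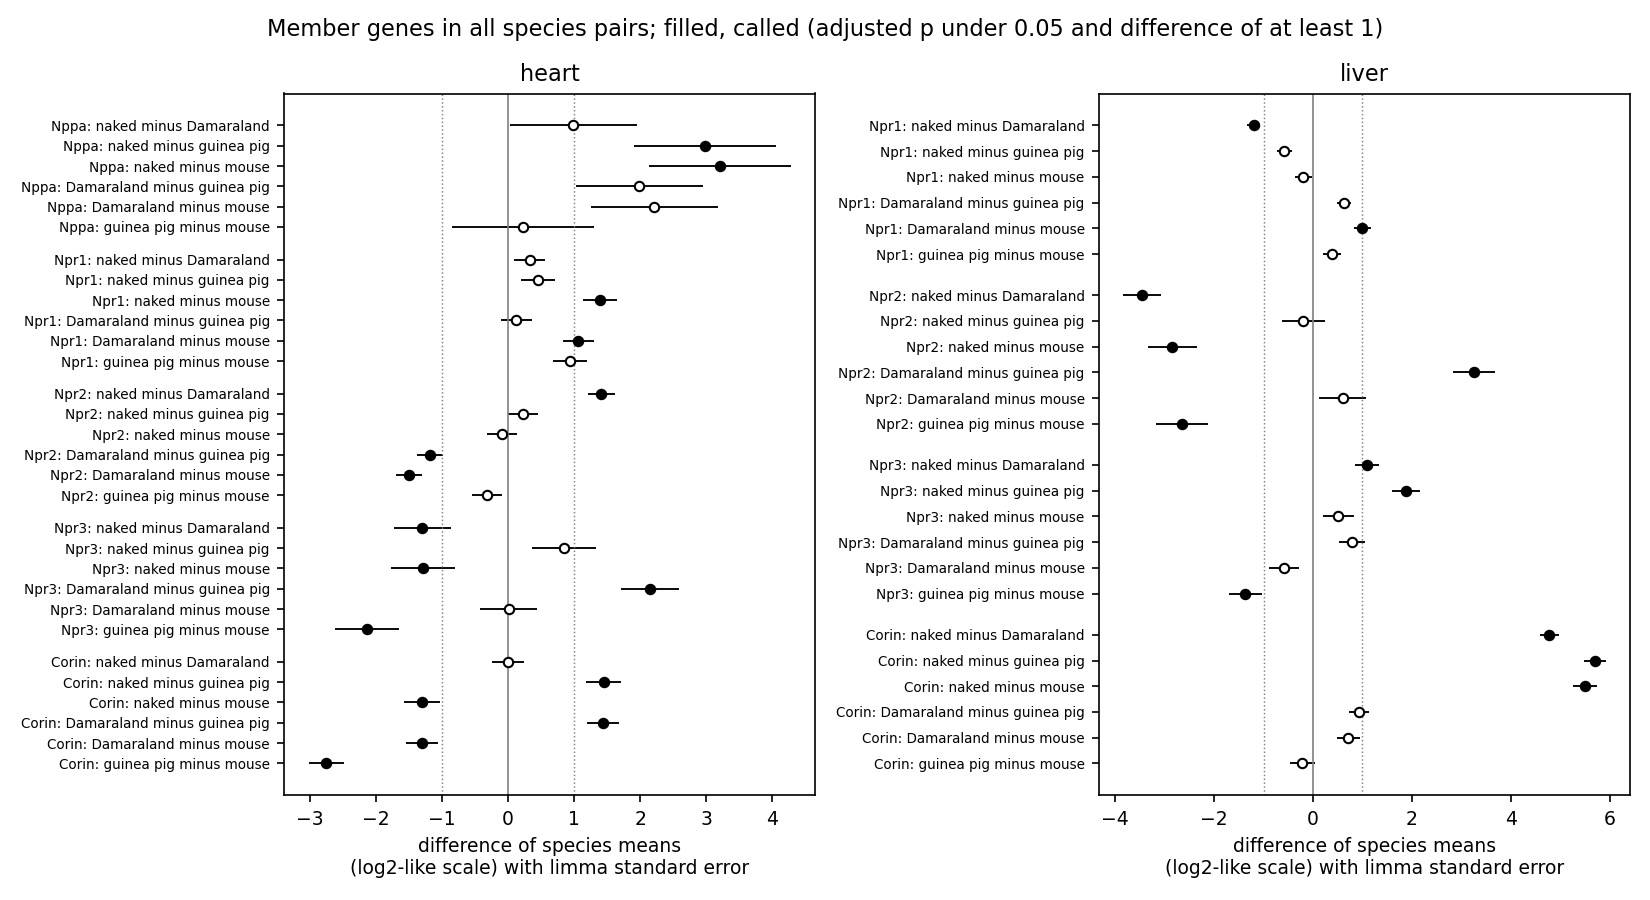
Differences of species means (log2-like scale, x axis) with limma standard errors for the tested genes in all species pairs, heart (left) and liver (right), filled where called. Corin in naked mole-rat liver reaches 4.78 to 5.71, Npr2 in liver reaches -3.45 and 3.26, and the Nppa differences in heart carry the widest errors, up to 1.07.

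The other genes that make, cut or degrade these peptides differed in their calls between the tissues. Of 7 genes on this list, which includes Corin, none was called in heart between the average of the mole-rats and that of the outgroups (0 by limma with the size threshold, 3 higher and 2 lower at an unadjusted p under 0.05, and 1 higher with voom). In liver 4 of 7 were called, against 28.1% of all liver genes. Of these 2 were higher, Corin and Pcsk6 (1.44, limma adjusted p = 1.41e-07), a convertase known to activate corin. The other 2 were lower: Ide (-1.08), the insulin-degrading enzyme, and Mme (-2.73, limma adjusted p = 7.53e-11). Mme encodes neprilysin, which degrades natriuretic peptides, and is described here after its values were seen. It stood at 5.05 ± 0.27 (SD, n = 5) in Damaraland livers, against 11.38 ± 0.37 (n = 4) in naked mole-rat, 11.66 ± 0.18 (n = 3) in guinea pig and 10.22 ± 0.14 (n = 2) in mouse livers. The mole-rat average was thus low through the Damaraland livers, while naked mole-rat livers exceeded mouse livers by 1.16 (limma adjusted p = 0.000309). In heart, Mme was at 9.41 in naked mole-rat, 6.85 in Damaraland, 6.81 in guinea pig and 8.70 in mouse.

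Among 11 cGMP effector genes, which act downstream of NPR-A and NPR-B, 9 were tested in heart, of which 2 were called in the mole-rat average and were lower, and 10 in liver, with 1 higher and 1 lower. For this and the lists that follow, the shares over all genes in the same contrast are 23.4% in heart and 28.1% in liver, and counts near these are no result about a list. The member with the largest average difference was Prkg2, a cGMP-dependent protein kinase, in both tissues. In heart it stood at 10.37 ± 0.07 (SD, n = 3) in guinea pig and between 5.90 and 6.26 in the species means of the others, so its average difference of -2.01 (limma adjusted p = 2.97e-09) came from the guinea pig. In liver it stood at 9.31 ± 0.16 (n = 4) in naked mole-rat and between 4.29 and 4.78 elsewhere, which gave an average difference of 2.63 (limma adjusted p = 1.16e-11). Prkg2 in liver was thus high in the same species as Corin. In both tissues its means in the other species lay below the filter, at 6.36 in heart and 5.29 in liver. Prkg2 was therefore tested only through the species where it was high, as Corin was in liver.

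Phosphodiesterases, which break down cyclic nucleotides, had 2 of 9 called in heart, both lower, and 2 of 8 higher and 1 lower in liver. Pde1c was lowest in naked mole-rat hearts (8.55 ± 0.13, n = 3, against means of 10.92 to 11.35 elsewhere), with an average difference of -1.58 (limma adjusted p = 1.56e-07). Pde1a gave the largest average difference in liver, -1.59 (limma adjusted p = 1.1e-07). In the nitric oxide and soluble cyclase list, the other route to cGMP, 3 of 8 were higher and 1 lower in heart, and 2 of 7 higher and 1 lower in liver. Ddah2, which degrades an inhibitor of nitric oxide synthase, led in heart (1.65, limma adjusted p = 3.72e-05). Gucy1b1, the beta subunit of soluble guanylyl cyclase, was called higher in liver in all 4 comparisons of a mole-rat with an outgroup, with means of 9.72 and 11.12 in naked and Damaraland mole-rats against 8.65 and 7.27 in guinea pig and mouse (average difference 2.46, limma adjusted p = 6.59e-09).

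The renin-angiotensin genes, whose hormones oppose the natriuretic peptides, had 1 of 3 tested genes called in heart, which was lower. Ace, the angiotensin-converting enzyme, was the one lower in heart (-2.14, limma adjusted p = 5.37e-08), with means of 8.50 and 7.12 in naked and Damaraland mole-rats against 10.50 and 9.38 in guinea pig and mouse. In liver, 2 of 4 tested genes were called, both higher, among them Agt, the angiotensinogen gene (1.31, limma adjusted p = 2.37e-05).

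Transcription factors known to act on the Nppa promoter had 1 of 13 called higher and 3 lower in heart, and 2 of 11 called in liver, both lower. Mef2d was called lower in heart in all 4 mole-rat comparisons (average difference -1.35, limma adjusted p = 0.000131). Tbx3 was called lower in the heart average (-1.06) and in all 4 comparisons in liver (-2.04, limma adjusted p = 7.19e-09). The genes of the cardiac stress response, often measured with Nppa, had 2 of 10 called higher and 1 lower in heart and 1 of 9 each way in liver. Myh7, the beta myosin heavy chain, differed by 4.31 in heart (limma adjusted p = 2.54e-09), but its mean of 10.25 in mouse stood against 18.43 in guinea pig, 18.07 in Damaraland and 19.23 in naked mole-rat, so it set mouse apart from the rest and did not share the Nppa order. Rcan1, a calcineurin-responsive gene, was called higher in liver in all 4 mole-rat comparisons (2.50, limma adjusted p = 1.75e-05).

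The genes whose profiles were most like each member were taken over the 14 libraries of a tissue by Pearson's r, as a description. Species means and library composition are shared by all points. Nppa in heart was most like Vcam1 (r = 0.858, and 0.746 after removal of species means), an adhesion molecule gene, followed by Utp18 (0.821) and Rnh1 (0.809). Corin was most like Twnk in heart (0.967) and like Dnajc27 (0.992), Il17b (0.991) and Trpm8 (0.991) in liver, where the r of deviations from species means was 0.283, 0.344 and 0.504. Npr1 was most like Sema4c in heart (0.941) and Prickle2 in liver (0.967), Npr2 like Cog5 in heart (0.979) and Cdcp1 in liver (0.952), and Npr3 like Fmo2 in heart (0.892) and Dpf2 in liver (0.922).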

How the data were processed

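The deposited tables, 1 per tissue, hold the authors' variance-stabilised log2 values, made with cutadapt, Salmon 013.1 and DESeq2 on GRCm38 gene identifiers, as far as the submitters' processing notes name tools and builds. Their roles, the assignment of genes across species and any length correction are not given in the sources used here. Of 13928 rows, 13921 matched a symbol. A further 26 columns belong to other series and were not used. Inverting the transform gave whole reads for 100% of values (tolerance 0.001). No sequences are shown, since no sequence source was used here.

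The deposited values of each tissue were fitted in R 4.3.3 by limma 3.58.1, with 1 coefficient per species and variances moderated along a trend. Benjamini-Hochberg adjustment ran over all genes whose mean was at least 1 above the value of 0 reads. On simulated reads for naked mole-rat minus mouse, 200 genes were changed in each tissue, drawn only from the more abundant ones. In heart, 20% of 2-fold and 97% of 4-fold changes were called, with 10667 genes simulated. In liver, 25% and 99% were called, with 10887 genes simulated. Without the size threshold, 68% of 2-fold changes in heart and 61% in liver had an adjusted p under 0.05. These shares do not cover genes of low counts. In the data, 38.2% of heart genes and 41.2% of liver genes were called in this comparison, far more than were changed here. The adjustment of p was therefore not alike, and the shares do not carry over directly to the data. Named list genes were those called with one sign in all 4 mole-rat comparisons, the called gene with the largest average difference per list, and the atrial and ventricular markers. Not every gene this rule allows among the other cell markers is named, and Mme, Pcsk6 and Ide were added. Some genes of the lists are not reported here. The members, the lists and the rules were chosen with earlier results of these data known.

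Alternatives covered the size threshold, the filter, centring, quantile normalisation, the variance model, array weights, voom on recovered reads, the replicate number as a block and each library left out in turn. Leaving out mouse liver libraries and the 3 libraries highest in Myl4 was chosen after seeing the data. Within a tissue, the same replicate number names different animals in each species.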

Additional observations from a re-analysis of the deposited data

Results flagged for a closer look

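Values that stood apart from their own group were sought in 32 groups of 4 or 5 libraries, of which chance alone marks about 1 in 20, and 6 were found. Damaraland heart replicate 5 accounted for 3 of them: Nppc at 6.36 against 5.79 to 5.90 in the other Damaraland hearts, Bmp10 at 10.36 against 5.83 to 6.75, and Mybphl at 7.59 against 6.38 to 6.62. Myl3 in Damaraland heart replicate 4 was low, at 15.48 against 16.07 to 16.29. In naked mole-rat liver replicate 4, Nppc was at 4.77, from 3 reads, where the other naked mole-rat livers had none, and Npr2 was at 6.95 against 7.13 to 7.15.

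Of 24 species comparisons that could be read in both tissues, 6 had every library on one side in heart and every library on the opposite side in liver. The same count over all genes was not made, so the 6 are no result about the members. Both Npr1 differences below were under the size required for a call. So were the liver differences of Npr3 and of Corin in Damaraland minus mouse. The difference between the tissues was not tested. Npr1 differed between naked mole-rat and guinea pig by 0.45 in heart and -0.58 in liver. For Npr2, naked minus Damaraland was 1.41 in heart and -3.45 in liver, and Damaraland minus guinea pig was -1.18 in heart and 3.26 in liver. Npr3 in naked mole-rat minus mouse was -1.29 in heart and 0.51 in liver. Corin in naked mole-rat minus mouse was -1.30 in heart and 5.49 in liver, and in Damaraland mole-rat minus mouse it was -1.31 in heart and 0.71 in liver.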

How the results depend on the processing

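Over 25 alternatives, called differences numbered 14 to 18 in heart (16 as reported) and 10 to 17 in liver (12 as reported). In liver, 1 of the 25 repeats another, since the female library left out is Damaraland replicate 4. Of the called differences, 10 of 16 in heart and 10 of 12 in liver kept their call in every alternative, and none changed sign. Of the differences not called, 3 of 14 in heart and 5 of 12 in liver were called in some alternative. Among the differences not called, these changed sign, and the cause was not tested. Under array weights, Npr1 in heart was -0.029 for Damaraland minus guinea pig, Npr3 in heart -0.062 for Damaraland minus mouse, Corin in heart -0.20 for naked minus Damaraland and -0.12 for the average, and Npr2 in liver 0.34 for naked minus guinea pig. With the replicate block, which gave 14 calls in heart and 11 in liver, they were -0.23 for Npr1 (Damaraland minus guinea pig), -0.41 for Npr3 (Damaraland minus mouse) and -0.041 for the Corin average. Voom gave -0.10 for Npr3 (Damaraland minus mouse) and -0.030 for Corin (naked minus Damaraland), library centring -0.0093 for the latter, and quantile normalisation 0.0079 for Npr2 (naked minus mouse). Without the 3 libraries highest in Myl4, which are also the highest of their species in Nppa, heart values were -1.13 for Nppa (guinea pig minus mouse), -0.075 for Npr2 (naked minus guinea pig), -0.22 for Npr3 (Damaraland minus mouse), -0.15 for Corin (naked minus Damaraland) and -0.15 for the Corin average. Leaving out 1 library at a time moved Nppa in heart from -1.13 to 1.22 (guinea pig minus mouse), Npr1 in heart from -0.027 to 0.29 (Damaraland minus guinea pig), Npr2 in heart from -0.22 to 0.0010 (naked minus mouse) and Npr3 in heart from -0.22 to 0.26 (Damaraland minus mouse). Corin in heart moved from -0.31 to 0.23 (naked minus Damaraland) and from -0.085 to 0.18 (average). In liver, Npr2 moved from -0.63 to 0.64 (naked minus guinea pig) and from -0.016 to 0.62 (average), and Corin from -0.53 to 0.10 (guinea pig minus mouse). Deviations from species means were correlated between libraries of different species with the same replicate number. The correlations ran from -0.261 to 0.301 in heart (median -0.0175, against -0.0095 for other numbers). In liver they ran from -0.232 to 0.15 (median 0.0265, against -0.00227). These medians showed no pairing by number. The 2 mouse livers and the shallow naked mole-rat heart replicate 3 limit the comparisons that use them, and low counts of Nppc, and of Nppa and Corin in liver, limit what could be seen there.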
